A study of Mus musculus with 6 samples.

Results

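The genes described here are 10 neuronal tubulin and microtubule genes of cortical neuron migration: Tuba1a, Tubb2a, Tubb2b, Tubb3, Dcx, Dclk1, Pafah1b1, Ndel1, Map1b and Mapt. They were taken by symbol from the 45583 rows of a gene count table of fetal mouse cortex, each matched exactly 1 row, and all 10 were among the 13741 genes with enough counts to be tested. The table held 6 libraries from male fetuses of the Cyp19-EGFP strain, a transgenic line on the FVBN background in which a bacterial artificial chromosome carries the aromatase gene Cyp19a1 together with EGFP, which encodes a fluorescent reporter. All 6 fetuses were labelled WT and SRY +, and cortex was taken at GD15.5 (gestational day). In the BPA group the dams had received 50 µg/kg of bisphenol A, an estrogen-mimicking plastic monomer, from GD10.5 to GD14.5, and in the vehicle group they had received peanut oil. According to the study's methods, the injections were daily and subcutaneous, and the bisphenol A was given in ethanol and peanut oil, with ethanol also named for the vehicle. Each group had 3 fetuses with 1 library each. The labels give a number for each fetus but not its dam, so fetuses of 1 litter cannot be told from fetuses of several, and p-values measure only the spread between these libraries.

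Microtubules are hollow polymers of alpha-tubulin and beta-tubulin pairs. In the fetal cortex they form the leading process of the migrating neuron and the cage that couples its nucleus to the centrosome, so that the cell body can be pulled from the ventricular zone to the cortical plate. Mutations in the human counterparts of Tuba1a, Dcx and Pafah1b1 cause lissencephaly, a smooth cortex with few folds, and mutations in those of Tubb2b and Tubb3 cause other malformations of cortical development. Doublecortin (Dcx) and its relative Dclk1 bind and stabilize the microtubule lattice, Lis1 (Pafah1b1) and Ndel1 regulate the motor protein dynein, and Map1b and tau (Mapt) are structural microtubule-associated proteins of growing axons.

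Libraries held between 3444601 counts (BPA replicate 3) and 7180835 counts (vehicle replicate 2), and the 10 genes together took 1.47% to 1.61% of the counts of a library. Every gene had at least 232 counts in every library, so none was near the limit of 3 counts used as a detection floor. The tissue label was checked against cortical neuron markers: Tbr1 lay between 543 and 678 CPM (counts normalised to the scaled library size) and Neurod6 between 634 and 855 CPM. Markers of the neighboring ventral telencephalon were present as well, with a summed level of 1025 to 1168 CPM over 9 genes in vehicle and 890 to 973 CPM in BPA. These sums did not overlap between the groups, and their part in the values of the 10 genes was not tested. Choroid plexus markers set vehicle replicate 2 and BPA replicate 2 apart, with summed levels over 4 genes of 209.6 and 332 CPM, where the other 4 libraries had 3.38 to 16.3 CPM. All levels are of bulk tissue, in which fewer cells of a type and less RNA per cell cannot be told apart.

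Before levels are given, the sequences show how far the tubulin genes can be told apart by reads of 50 bases. Tubb2a and Tubb2b lie beside each other on chromosome 13 and have coding sequences of 1338 bases, of which 1291 (96.5%) were identical in the GENCODE M21 transcripts, with a longest identical run of 551 bases. Tuba1a and Tuba1b on chromosome 15 were identical at 1333 of 1356 coding bases (98.3%). The last 90 coding bases before the stop codon are shown because they encode the acidic tail, the part in which tubulin isotypes usually differ most. They are given for Tubb2b and Tubb2a, and capitals mark bases of Tubb2a that differ from Tubb2b at the same position. Both windows lie in the coding part of exon 4 on the minus strand of GRCm38, at chr13:34127474-34127563 (Tubb2b) and chr13:34074471-34074560 (Tubb2a), and were read from the GENCODE M21 transcripts.
Tubb2b: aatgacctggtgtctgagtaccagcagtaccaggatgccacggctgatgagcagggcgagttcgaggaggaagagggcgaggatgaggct
Tubb2a: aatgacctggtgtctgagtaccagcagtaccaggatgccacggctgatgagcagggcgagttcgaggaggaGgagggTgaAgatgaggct

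Within these windows Tubb2a differed from Tubb2b at 3 bases. Read in frame, all 3 left the encoded amino acid unchanged, so the windows encode the same protein tail. Over whole transcripts, the share of 50-base words that also occurred in a transcript of another gene was 75.5% for Tuba1a, 49.6% for Tubb2a and 39.3% for Tubb2b. It was 0% for Tubb3, Ndel1, Map1b and Mapt, 0.288% for Dcx, 0.531% for Dclk1 and 1.60% for Pafah1b1. The shared words of Tubb2a and Tubb2b lay in the coding part (60.0% and 65.1% of its words), and none lay in the 3′ untranslated part. For Tuba1a, 93.9% of the coding words were shared and again none of the 3′ untranslated words. Of all its words, 46.9% occurred in Tuba1c and 43.4% in Tuba1b. Counts of these 3 members are therefore uncertain, because the sources used here do not state how reads with several alignments were counted. Tuba1a had 88342 counts over the 6 libraries, or 206 for each of its 429 unshared words, and Tubb3 had 42.7 for each of its 1819 words. The corresponding value was 1.98 for Tuba1b, which had only 50 to 122 counts per library, and 0.228 for Tuba1c. Gm49450, a gene model on the same strand, also covered 26.2% of the exonic bases of Tuba1a and was not analysed here.

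**Figure D1:**
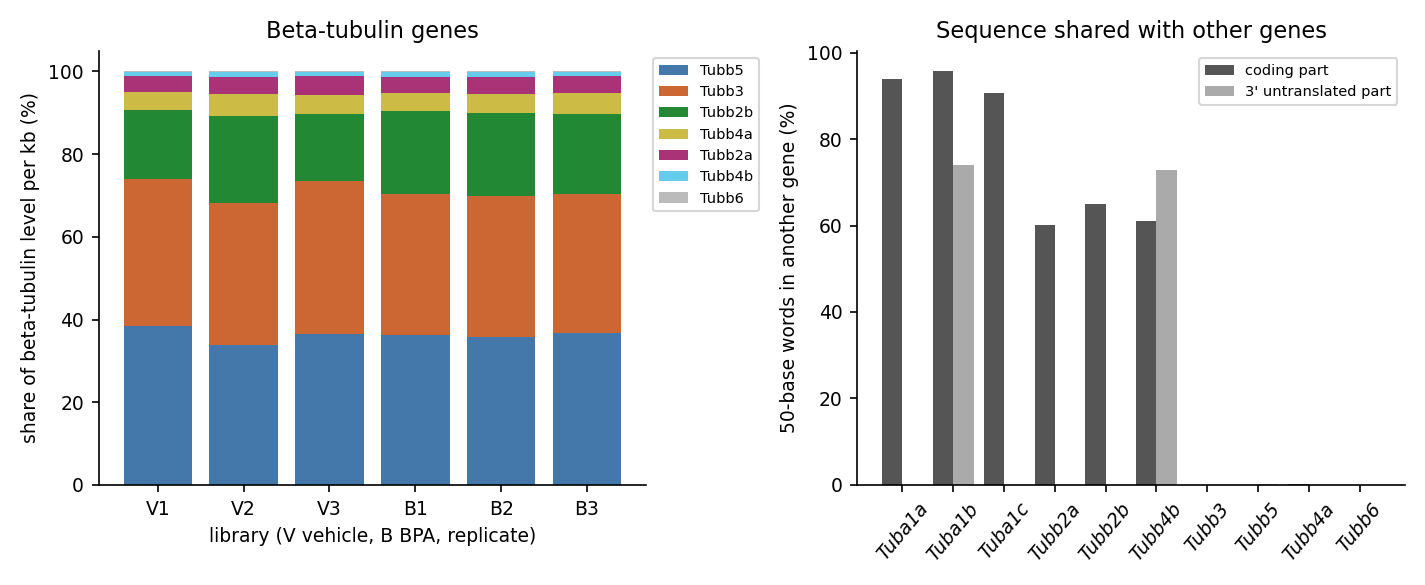
Left, stacked bars of each beta-tubulin gene's share of the summed beta-tubulin level per kilobase of exonic length (%), for vehicle (V1 to V3) and BPA (B1 to B3) replicates. Right, share of 50-base words of the coding part (dark) and the 3′ untranslated part (light) that occur in another gene (%). Tubb5 and Tubb3 took most of the beta-tubulin level in every library, and Tuba1a shared 93.9% of its coding words while Tubb3 shared none.

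Levels between genes were compared as CPM per kilobase of exonic length. The order over the 6 libraries was Tuba1a at 1400 ± 165 (SD, n = 6), Tubb3 at 1191 ± 95.7, Tubb2b at 646 ± 64.8, Mapt at 240.2 ± 22.5, Map1b at 238 ± 24.3 and Dcx at 183 ± 21.4 CPM per kilobase. Tubb2a followed at 139.7 ± 15.9, Dclk1 at 42.3 ± 3.89, Pafah1b1 at 38.1 ± 5.62 and Ndel1 at 22.1 ± 1.05 CPM per kilobase. Ranges over the libraries overlapped between the neighbors Tuba1a and Tubb3, Mapt and Map1b, Map1b and Dcx, Dcx and Tubb2a, and Dclk1 and Pafah1b1. Mapt was above Map1b in 3 of 6 libraries, so their order is not set by these data, whereas within a library the higher of each other overlapping pair was above its neighbor in 6 of 6. Dividing by the length of the longest coding transcript kept the order and separated Dcx (222 to 293 CPM per kilobase) from Tubb2a (120.3 to 166 CPM per kilobase).

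The central question was whether maternal BPA altered these transcripts in the fetal cortex. With edgeR's quasi-likelihood test, 0 of 10 members passed the Benjamini-Hochberg threshold of 0.1 (adjusted p = 0.9998 for each), and neither did any member with DESeq2 or limma-voom. The share of the 13741 genes that passed was 0.00%. Before adjustment, 1 member (Tuba1a, lower in BPA) had p under 0.05, where 2.20% of all genes (302) reached that level and 1.18% did so with a lower value in BPA. Estimates ran from -0.23 (Tuba1a) to 0.08 (Tubb2b) on the log2 scale, 7 were below and 3 above 0, and their median was -0.076, where the median of all genes tested was 0.0016 and 49.5% lay below 0. The members' median was -0.029 without vehicle replicate 1, -0.038 without vehicle replicate 3 and -0.040 without BPA replicate 1, and ran to -0.11 without vehicle replicate 2.

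**Figure D2:**
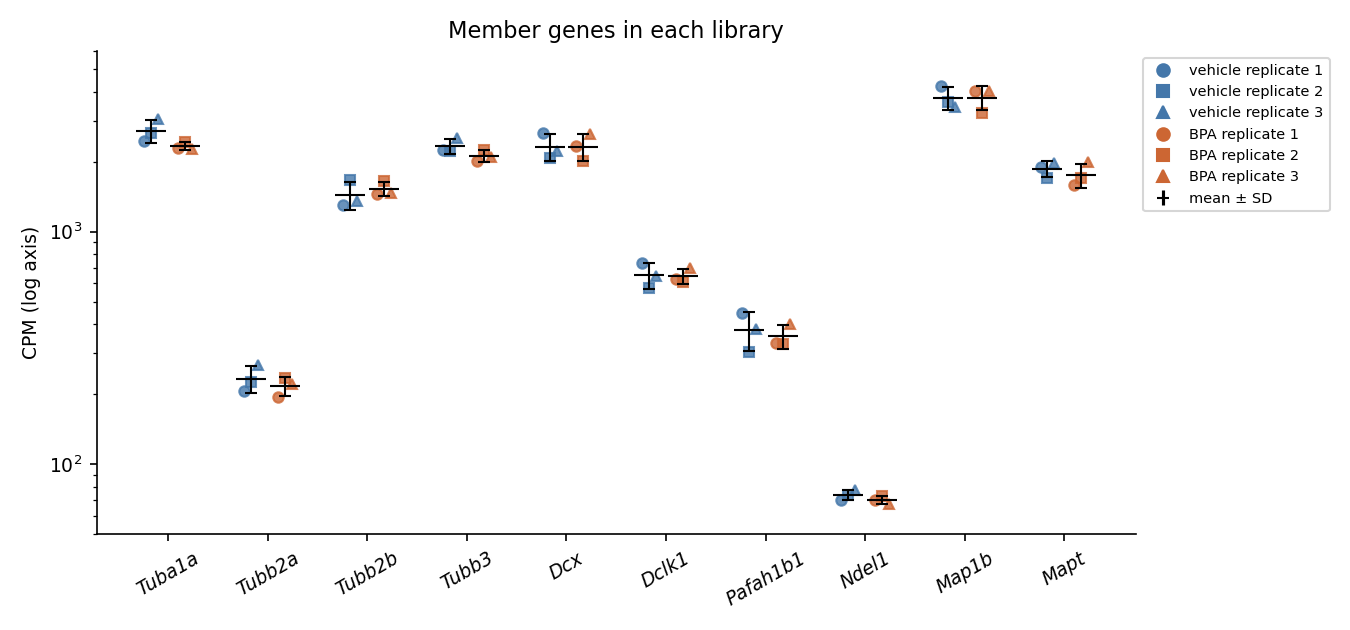
CPM (log axis) of the 10 genes in the 3 vehicle (blue) and 3 BPA (orange) libraries, with a marker shape for each replicate and the mean ± SD of each group in black. The groups overlap for each gene except Tuba1a, whose BPA libraries (2260 to 2432 CPM) lie below its vehicle libraries (2457 to 3059 CPM).

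Among the tubulins, Tuba1a encodes the main alpha-tubulin of postmitotic neurons (ENSMUSG00000072235.6, GRCm38 chromosome 15, 98949837 to 98953703, minus strand). Tuba1a was at 2457, 2650 and 3059 CPM in the vehicle libraries and at 2291, 2432 and 2260 CPM in the BPA libraries. The groups did not overlap, but the gap between the lowest vehicle library and the highest BPA library was small beside the spread within vehicle. Means were 2722 ± 308 CPM in the vehicle group against 2327 ± 92.0 CPM in the BPA group (mean ± SD, n = 3 each), a log2 fold change of -0.23 (SE 0.0999, 95% interval -0.44 to -0.014) with an adjusted p of 0.9998 by edgeR (quasi-likelihood test, unadjusted p of 0.0384). By unadjusted p it ranked 205th of all genes tested. It was the only 1 of the 10 members whose groups did not overlap, where 6.75% of all genes tested were without overlap and 3.56% were without overlap and lower in BPA. The size of the difference depended on vehicle replicate 3, the highest library: without it the log2 fold change of Tuba1a was -0.14 at an unadjusted p of 0.234. The unadjusted p of Tuba1a was also above 0.05 without BPA replicate 1 (-0.21, p of 0.0769) and without BPA replicate 3 (-0.21, p of 0.0977). Summing Tuba1a with Tuba1b and Tuba1c gave 2481, 2669 and 3084 CPM in vehicle and 2309, 2455 and 2277 CPM in BPA. The log2 fold change of this sum was -0.23 (SE 0.0998), with a Benjamini-Hochberg adjusted p = 0.9998 by edgeR's quasi-likelihood test. The sum does not depend on how reads were split among these 3 copies. However, Tuba1b (569 counts over the 6 libraries) and Tuba1c (172) added little to Tuba1a (88342), so it had to lie near Tuba1a alone. It also leaves out reads that were discarded or counted to other copies. Of these copies, Gm17383, in which 46.6% of the words of Tuba1a occurred, had only 4 to 16 counts per library. Postmitotic neuron markers, given for comparison, had summed levels over 12 genes of 4433 to 4718 CPM in vehicle and 4392 to 4523 CPM in BPA. Of these 12 genes, 10 had estimates below 0, where 49.5% of all genes tested did. Their part in the Tuba1a value was not tested.

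Tubb3 encodes the beta-tubulin restricted largely to neurons (chromosome 8, 123411424 to 123422015, plus strand). Its vehicle libraries were at 2244, 2225 and 2530 CPM, and its BPA libraries at 2004, 2250 and 2095 CPM. BPA replicate 2 lay among the vehicle libraries, so the groups overlapped. The log2 fold change of Tubb3 was -0.14 (SE 0.0947, 95% interval -0.34 to 0.061) at an unadjusted p of 0.158, and -0.080 at an unadjusted p of 0.477 without vehicle replicate 3.

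Tubb2b, a beta-tubulin gene of fetal neurons and progenitors (chromosome 13, 34126748 to 34130466, minus strand), was at 1297, 1665 and 1360 CPM in vehicle and at 1458, 1646 and 1468 CPM in BPA. In both groups replicate 2 was the highest library, the replicate that also held the most choroid plexus marker RNA, whose part in this value was not tested. The log2 fold change of Tubb2b was 0.08 (SE 0.107, 95% interval -0.14 to 0.31). It ranged from 0.011 without vehicle replicate 1 to 0.20 without vehicle replicate 2, and was 0.020 without BPA replicate 2 and 0.040 without vehicle replicate 3. Its neighbor Tubb2a (chromosome 13, 34074274 to 34078007, minus strand) was at 206, 226 and 268 CPM in vehicle and at 194, 234 and 222 CPM in BPA. Vehicle replicate 3 was again the highest library, as for Tuba1a and Tubb3. Its log2 fold change was -0.11 (SE 0.112, 95% interval -0.35 to 0.13), and it was -0.00057 without vehicle replicate 3, -0.033 without BPA replicate 1, -0.19 without vehicle replicate 1 and -0.17 without BPA replicate 2. There were 6.28, 7.38 and 5.07 counts of Tubb2b for each count of Tubb2a in the vehicle libraries and 7.53, 7.04 and 6.62 in the BPA libraries, and these ratios overlapped. The counts of both genes added together averaged 1674 ± 198 CPM in the vehicle group against 1741 ± 122 CPM in the BPA group (mean ± SD, n = 3 each), with a log2 fold change of 0.057 (SE 0.103).

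Per kilobase, Tubb5 and Tubb3 were the leading beta-tubulin genes, followed by Tubb2b. Per unshared word, Tubb5 had 55.4 counts over all libraries, Tubb3 had 42.7 and Tubb2b had 40.2, so Tubb2b was close to Tubb3 by that measure. Tubb5, a beta-tubulin gene of progenitors and neurons, took 36.3% ± 2.26 (SD, n = 3) of the beta-tubulin level in vehicle and 36.3% ± 0.403 (SD, n = 3) in BPA. The share of Tubb3 was 35.6%, 34.3% and 37.0% in the vehicle libraries and 34.1%, 33.9% and 33.8% in the BPA libraries. These shares of Tubb3 did not overlap between the groups, but vehicle replicate 2 and BPA replicate 1 were close to each other. The shares of Tubb6 did not overlap either and were higher in BPA, at 0.103% to 0.116% in vehicle and 0.118% to 0.123% in BPA. Shares within a class depend on one another, and in CPM the groups of Tubb3 overlapped. Tubb2b took 16.7%, 20.9% and 16.2% in vehicle and 20.2%, 20.2% and 19.3% in BPA, and Tubb2a took 4.13% ± 0.382 in vehicle and 4.02% ± 0.177 in BPA (SD, n = 3). On the alpha side, the counts assigned to Tuba1a made up 98.8% to 99.1% of the level per kilobase in each library. Shares are given as a description without a test, and those of Tuba1a, Tubb2a and Tubb2b carry the uncertainty of shared sequence given above.

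**Figure D3:**
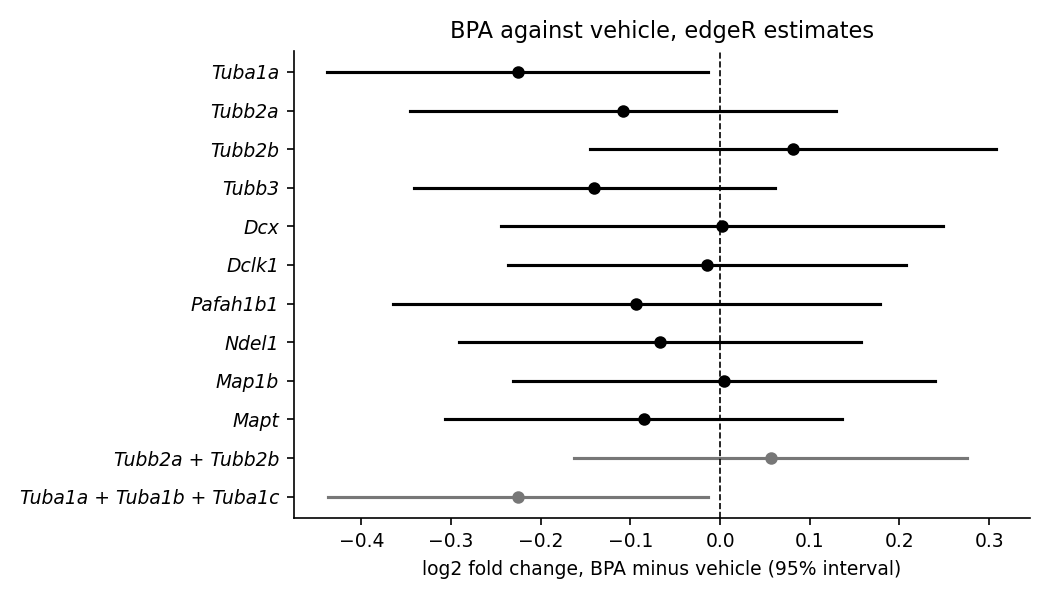
Log2 fold change of BPA minus vehicle with its 95% interval from edgeR's quasi-likelihood fit, for the 10 genes (black) and for near-identical tubulin genes summed (grey). Only the intervals of Tuba1a and of the Tuba1a sum lie wholly below 0, and no adjusted p was below 0.1.

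Of the doublecortin family, Dcx (chromosome X, 143855842 to 143933311, minus strand) was at 2655, 2073 and 2224 CPM in vehicle and at 2328, 2016 and 2622 CPM in BPA. The highest library of each group, vehicle replicate 1 and BPA replicate 3, differed little from each other, and so did the lowest libraries, both replicate 2. Group means were 2317 CPM ± 302 (SD, n = 3) and 2322 CPM ± 303 (SD, n = 3), with a log2 fold change of 0.0024 (SE 0.116, 95% interval -0.24 to 0.25). Dclk1, which joins a doublecortin domain to a protein kinase domain (chromosome 3, 55242364 to 55539068, plus strand), was at 734, 571 and 644 CPM in vehicle and at 628, 607 and 695 CPM in BPA. The same libraries were highest as for Dcx. The log2 fold change of Dclk1 was -0.015 (SE 0.105, 95% interval -0.24 to 0.21). The closest relative of Dclk1, Dclk2, averaged 470 ± 46.4 CPM in the vehicle group against 456 ± 40.1 CPM in the BPA group (mean ± SD, n = 3 each), with a log2 fold change of -0.046 (SE 0.102).

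In the Lis1 group, Pafah1b1, which encodes Lis1 (chromosome 11, 74673949 to 74724670, minus strand), was at 448, 305 and 380.0 CPM in vehicle and at 333, 328 and 403 CPM in BPA. Vehicle held both the highest and the lowest library of Pafah1b1, and the highest exceeded the lowest by 1.47-fold, the widest range of the 10 genes. Its log2 fold change was -0.094 (SE 0.128, 95% interval -0.37 to 0.18). Ndel1, the dynein regulator that binds Lis1 (chromosome 11, 68821434 to 68871858, minus strand), was the steadiest of the 10 genes, at 70.0, 73.6 and 77.3 CPM in vehicle and at 69.9, 72.8 and 67.7 CPM in BPA. The log2 fold change of Ndel1 was -0.067 (SE 0.106, 95% interval -0.29 to 0.16), and it ran from -0.10 without vehicle replicate 1 to -0.035 without vehicle replicate 3. Nde1, the relative of Ndel1 found mainly in dividing progenitors, averaged 64.7 ± 8.14 CPM in the vehicle group against 67.7 ± 14.6 CPM in the BPA group (mean ± SD, n = 3 each), with a log2 fold change of 0.077 (SE 0.146).

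The structural proteins of the axon gave equally small estimates. Map1b (chromosome 13, 99421446 to 99516540, minus strand) was at 4228, 3603 and 3447 CPM in vehicle and at 4030, 3254 and 4029 CPM in BPA. Its groups overlapped nearly fully, with a log2 fold change of 0.0043 (SE 0.111, 95% interval -0.23 to 0.24). Mapt, which encodes tau (chromosome 11, 104231390 to 104332090, plus strand), was at 1904, 1704 and 1978 CPM in vehicle and at 1582, 1699 and 1986 CPM in BPA. BPA held both the lowest and the highest library of Mapt, and its log2 fold change was -0.085 (SE 0.104, 95% interval -0.31 to 0.14). That of Mapt ranged from -0.016 without BPA replicate 1 to -0.18 without BPA replicate 3, and was -0.041 without vehicle replicate 3 and -0.14 without vehicle replicate 2. No member's 95% interval reached below -0.44 or above 0.31 on the log2 scale, and these intervals are not adjusted for the number of genes.

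The members varied among libraries in 2 patterns, and the first described here cut across treatment. After each gene's mean log2 CPM over the 6 libraries was subtracted, Dcx, Dclk1, Pafah1b1 and Map1b were above their means in vehicle replicate 1 (by 0.17 to 0.31) and BPA replicate 3 (by 0.10 to 0.18). In vehicle replicate 2 and BPA replicate 2 the same 4 genes were below their means, at -0.25 to -0.057 and at -0.20 to -0.085. Tuba1a, Tubb2a and Tubb3 instead had their highest value in vehicle replicate 3, at 0.28, 0.26 and 0.19, and were at or below -0.13 in BPA replicate 1. In this pattern the groups of Tuba1a did not overlap, with -0.032 to 0.28 in vehicle and -0.15 to -0.046 in BPA. Those of Tubb2a and Tubb3 did. The closest pairs of members by root mean square difference over the 6 libraries were Tubb3 with Ndel1 (0.061), Dcx with Dclk1 (0.062) and Tuba1a with Tubb3 (0.066). Over all genes of at least 10 CPM, Scd2 (0.012), Cct8 (0.014), Zfr (0.015), Kifap3 (0.016) and Zranb1 (0.024) lay nearest to the mean profile of the 10 members, all by the same measure in log2 units. That mean profile was nearly flat, with a root mean square of 0.0586 over the 6 libraries where single members had 0.0618 to 0.191.

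Transcript length moved with these patterns in part. The members differ in length: the 4 tubulin genes have 1.61 to 2.29 kilobases of exons, Ndel1 has 3.25, and the other 5 have 7.53 to 15.8 kilobases. The mean of those 5 minus the mean of the 4 tubulins, in centred log2 CPM, was 0.27, -0.21 and -0.15 in the vehicle libraries and 0.080, -0.19 and 0.20 in the BPA libraries. The median of the longest decile of all tested genes minus that of the shortest decile was 0.12, -0.073 and -0.19 in vehicle and 0.12, -0.20 and 0.16 in BPA, in the same units. Both contrasts had the same sign in 6 of 6 libraries, and the long-gene and short-gene libraries were spread over both treatments. Single long members departed from the longest decile. In BPA replicate 1 the decile stood at 0.086, but Mapt was at -0.19, Pafah1b1 at -0.12 and Dclk1 at -0.038. Dcx (0.013) and Map1b (0.10) were above 0 there. In vehicle replicate 3 the decile stood at -0.078, but Mapt was at 0.13 and Pafah1b1 at 0.066, while Dcx, Dclk1 and Map1b were below 0. Removing the median deviation of each length decile from each library gave Tuba1a a log2 fold change of -0.19 with an adjusted p of 0.9994 by edgeR (quasi-likelihood test, unadjusted p of 0.0275), and 0 members passed the threshold. This correction was added after seeing the data.

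**Figure D4:**
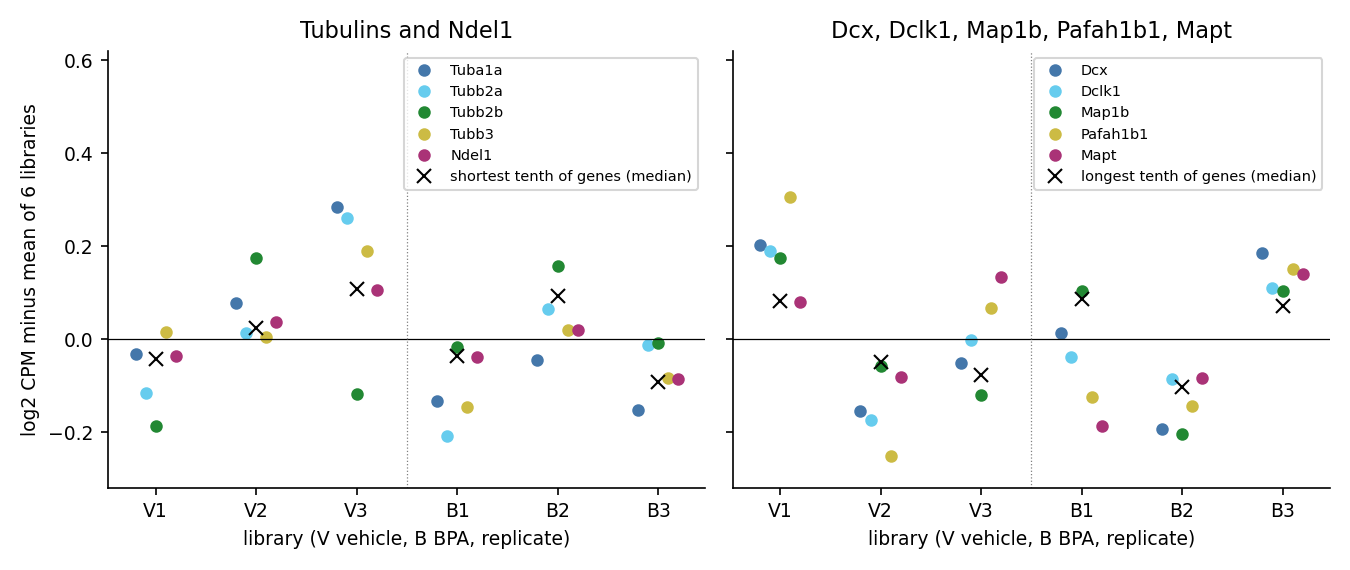
Log2 CPM minus the gene's mean over the 6 libraries, for the tubulins and Ndel1 (left) and for the 5 longer genes (right), in vehicle (V1 to V3) and BPA (B1 to B3) replicates. Crosses are the median of the shortest decile (left) and longest decile (right) of all tested genes. The longer genes are high in V1 and B3 and low in V2 and B2. The crosses of the right panel move the same way in these libraries, and those of the left panel move the opposite way.

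The wider machinery was described with 6 lists of 131 genes, of which 126 were tested. None of the 126 passed an adjusted p of 0.1, 56 had estimates above 0 and 70 below, and their median log2 fold change was -0.016. Before adjustment 1 of 126 had p under 0.05, where 2.20% of all genes tested did. The groups did not overlap for 3 of 126 genes, where 6.75% of all genes tested were without overlap, so neither count stood above that of all genes. Tubgcp2 (0.13) and Cep85l (0.26) were higher in BPA and Map4 (-0.059) was lower, in log2 fold change. These 3 genes, and those given as the end of a list's range, were chosen after their values were seen.

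Other tubulin genes and their nucleating complex had 9 of 16 tested genes below 0, with a median log2 fold change of -0.041. Tubb5 was the most abundant of them, at 4222 ± 277 CPM in the vehicle group against 4028 ± 218 CPM in the BPA group (mean ± SD, n = 3 each), with a log2 fold change of -0.068 (SE 0.0945). Tubb4b, Tubb6, Tuba1b and Tuba1c had log2 fold changes of -0.044, 0.054, -0.081 and -0.35, the last with 10 to 41 counts per library. Tube1, the epsilon-tubulin gene of centrioles, had the smallest unadjusted p of the list (0.133), at 7.38 ± 1.47 CPM in the vehicle group against 9.55 ± 1.40 CPM in the BPA group (mean ± SD, n = 3 each). The 4 remaining genes of this list had at most 1 count in any library and were not tested, namely Tuba3a, Tuba3b, Tuba8 and Tubb1.

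Tubulin folding and modifying enzymes had 7 of 17 tested genes below 0, with a median of 0.0055. Svbp had no row of that name. Vash1, which removes the C-terminal tyrosine of alpha-tubulin, was at 164 ± 24.0 CPM in the vehicle group against 136 ± 28.1 CPM in the BPA group (mean ± SD, n = 3 each), a log2 fold change of -0.27 (SE 0.142) at an unadjusted p of 0.0735. Its groups overlapped, since vehicle replicate 1 (146 CPM) was below BPA replicate 1 (162 CPM). Atat1, the alpha-tubulin acetyltransferase gene, led this list in abundance, and its estimate was -0.11 (SE 0.0959).

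Other microtubule-binding proteins had 21 of 28 genes below 0, the highest share of the 6 lists, where 49.5% of all tested genes lay below 0. The estimates were small, from -0.15 (Map1lc3a) to 0.097 (Clip1), with a median of -0.051. Map2, the dendritic counterpart of tau, led in abundance at 2005 ± 114 CPM in the vehicle group against 1982 ± 87.0 CPM in the BPA group (mean ± SD, n = 3 each), and Map9 had the smallest unadjusted p (0.225) with a log2 fold change of -0.13 (SE 0.106).

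Dynein, dynactin and Lis1 partners had 14 of 25 genes below 0, with a median of -0.015. Dync1h1, the heavy chain that carries the dynein motor, had a log2 fold change of 0.048 (SE 0.126), and the light chain gene Dynll2 had -0.15 (SE 0.0977) at an unadjusted p of 0.133. Genes of the kinesin family and of kinesin light chains were evenly split at 6 of 12 below 0. All 12 kinesin estimates lay between -0.077 (Kif5c) and 0.077 (Kif21a), and the most abundant gene, Kif21b, had 0.015 (SE 0.102).

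Reelin, Cdk5 and other migration genes had 13 of 28 below 0, with a median of 0.0065. Actb, which encodes cytoplasmic beta-actin and led this list in abundance, averaged 3665 ± 261 CPM in vehicle libraries against 3775 ± 350.1 CPM in BPA libraries.

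**Figure D5:**
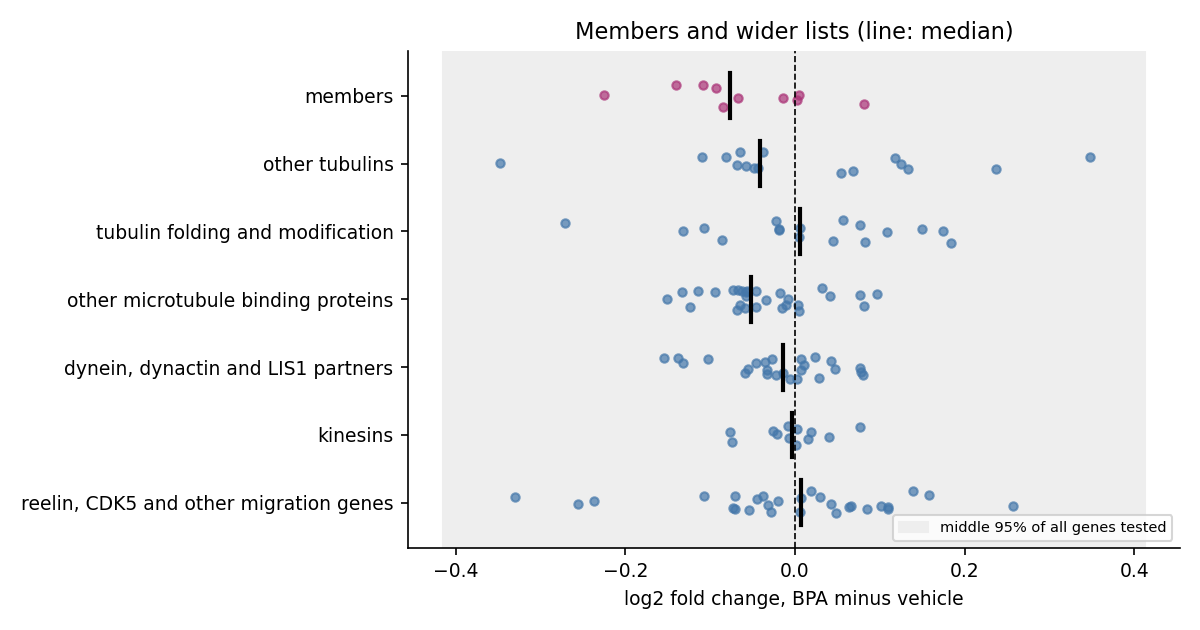
Log2 fold change of BPA minus vehicle for the 10 members and for the tested genes of the 6 wider lists, 1 point per gene with the median as a black line. The grey band holds the middle 95% of all 13741 genes tested (-0.41 to 0.41). All points lie within this band.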

How the data were processed

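RNA of 6 fetal cortices was measured by RNA sequencing, and the authors deposited 1 table of raw read counts per gene symbol. According to the study's methods, strand-specific libraries gave single-end 50-base reads, which were aligned to GRCm38 with TopHat (version 2.0.14, TopHat2 in the submitters' processing notes) and counted with featureCounts. GENCODE gene models are named there for transcript assembly with StringTie (version 1.2.4). The settings of featureCounts for strand and for multiply aligned reads are not given in the sources used here. Groups came from the treatment labels, and replicates were numbered in accession order.

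Counts were analysed in R 4.3.3 with edgeR 4.0.16: filterByExpr (minimum count 10, minimum total 15), trimmed mean of M-values (TMM) scaling and the quasi-likelihood test of treatment alone. P-values were adjusted over all genes tested (Benjamini-Hochberg), and the threshold was 0.1 as in the study. CPM used TMM-scaled library sizes, and log2 CPM a prior count of 2. Standard errors and 95% intervals were derived from the quasi-likelihood statistic. DESeq2 1.42.0 and limma 3.58.1 (voom) were alternatives. Coordinates, exonic lengths and 50-base words came from GENCODE M21 (GRCm38), which matched 13127 (95.5%) of the genes tested by symbol. Correction for length and omission of a library pair were chosen after seeing the data.

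The members, lists and tests were chosen with earlier results of these data known. Genes named outside the members were, in each list, the gene with the smallest unadjusted p, the most abundant gene, and close relatives of members. A few items that this rule or the lists would name are not reported here.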

Additional observations from a re-analysis of the deposited data

How the results depend on the processing

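No member and no gene of the wider lists passed an adjusted p of 0.1 under any of the 16 alternatives. The adjusted p of Tuba1a ran from 0.645 to 0.999998 over its alternatives. The estimates of Tuba1a, Tubb2a, Tubb3, Ndel1 and Mapt stayed below 0 and that of Tubb2b above 0, but when 1 library was left out they ran from -0.29 to -0.14 for Tuba1a, -0.19 to -0.00057 for Tubb2a, -0.19 to -0.080 for Tubb3, -0.10 to -0.035 for Ndel1, -0.18 to -0.016 for Mapt and 0.011 to 0.20 for Tubb2b. Tuba1a lost its unadjusted p under 0.05 with a minimum of 10 CPM, which left 0 members at that level, and members there ran from 0 to 1 when a library was left out (0 on omission of vehicle replicate 3 and of BPA replicates 1 and 3). The estimate of Dcx turned to -0.00014 with no filter, -0.0015 with limma-voom and -0.031 with the length correction, and ran from -0.094 to 0.11 when a library was left out. Dclk1 turned to 0.027 without both vehicle replicate 1 and BPA replicate 3 and ran from -0.098 to 0.083 when 1 library was left out. Pafah1b1 ran from -0.23 to 0.049, and Map1b from -0.055 to 0.098, with -0.030 after the length correction. The cause of these turns was not tested.

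Over all genes, those past the adjusted threshold numbered 19 with no filter, 3 with DESeq2, 15 without both vehicle replicate 2 and BPA replicate 2, and 0 to 1 when 1 library was left out. Genes with an unadjusted p under 0.05 numbered 126 with DESeq2, 162 with a minimum of 10 CPM, 620 with no filter, 954 without both replicates 2, and 194 to 708 when 1 library was left out, with 708 without vehicle replicate 2. In the wider lists that number was 2 with no filter, 0 with library size alone, DESeq2 or limma-voom, 4 without both replicates 2, and 0 to 4 when 1 library was left out.

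With the longest coding transcript as length, the share of Tuba1a was 98.8% in vehicle and 98.8% in BPA, that of Tubb2a 3.73% and 3.63%, that of Tubb3 32.2% and 30.6% and that of Tubb5 41.2% and 41.1%, and that of Tubb2b 17.1% and 18.9%. No paired analysis was possible because the labels give no replicate numbers that the groups share. Counting error and the spread between libraries were not separated, and each group had 3 libraries.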
